A study of Mus musculus with 18 samples.

Results

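The unfolded protein response and the integrated stress response were followed in mouse heart apex, taken 1 day after myocardial infarction (MI), through 34 genes chosen by symbol from the 19197 genes listed for each library. All 34 symbols were found. They were read as 14 ER chaperones and folding factors, 4 genes of ER-associated degradation, 6 sensors and transcription factors, and 10 Atf4-type targets. The 18 libraries came from C57BL/6 mice, an inbred strain, in 3 groups of 6. Vehicle was given after a sham operation in 1 group (sham_vehicle) and after infarction in another (MI_vehicle), and the last had an infarction and received DCA, 10 mg/kg daily (MI_DCA). The labels name no genotype or age and do not spell out DCA, which is taken here as deoxycholic acid, a bile acid, because the study names it with the bile acid receptor TGR5. No sham group received DCA, so its effect without infarction was not measured. The study concerns bile acid signalling and inflammation after infarction. RNA was total RNA of frozen apex from perfused hearts, made into libraries with capture of coding transcripts and read as single reads of 50 bases.

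The ER, where secreted and membrane proteins fold, monitors its load through 3 membrane sensors, the proteins of Ern1, Eif2ak3 and Atf6. Ern1 splices the mRNA of Xbp1 into its active form. Released Atf6 and spliced Xbp1 raise chaperones and degradation factors. Eif2ak3 phosphorylates the translation initiation factor eIF2, which slows protein synthesis while favouring translation of Atf4, and other kinases reach Atf4 the same way during amino acid shortage, haem shortage or viral infection. Atf4 in turn raises genes of amino acid supply and of stress feedback. This last branch is called the integrated stress response, and in heart muscle it is well known for answering mitochondrial stress.

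The values are FPKM, which are scaled to transcript length and library depth, so levels can be set side by side between genes. Fold changes are differences of log2(FPKM + 1) between groups with their standard error (SE), and a gene was called at an adjusted p under 0.05 in limma over all genes tested. The estimated depth was 9500000 to 14300000 reads per library, and the 6 sham libraries had 10400000 or fewer. Every MI_vehicle library had 11400000 or more, so estimated depth separated these groups completely. The MI_DCA libraries had 10200000 to 13200000. Before the results, 4 infarcted libraries need naming. In MI_vehicle 4 and MI_DCA 1, 3 and 5, Nppb, the gene of the stretch-induced brain natriuretic peptide, lay between 144 and 324 FPKM, where the sham libraries reached 277 and the other infarcted libraries started at 1102. Nothing in the labels sets these 4 apart, and the main counts and medians are also given without them, a setting chosen after the data were seen. This setting selects on Nppb, which was measured after treatment, and drops MI_DCA 1, 3 and 5 but only replicate 4 of MI_vehicle. Its values therefore do not show whether DCA changed the members. The 8 cardiomyocyte markers summed to 31320 FPKM or more in every library, none of the markers listed was at 0 in all libraries, and in MI_vehicle hearts 6 of 8 fell and 1 rose. In MI_DCA hearts 3 of 8 fell against sham. All 9 leukocyte markers rose in MI_vehicle hearts, from a sum of 258.8 to 428.9 FPKM in sham to 470.7 to 1081. The sum was 286.1 to 758.1 in MI_DCA, where 5 of 9 rose against sham. Over all genes tested against sham, 38.3% rose and 20.1% fell in MI_vehicle, and 15.5% rose and 8.33% fell in MI_DCA. Bulk tissue cannot tell fewer cells of a type from less RNA per cell.

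**Figure D1:**
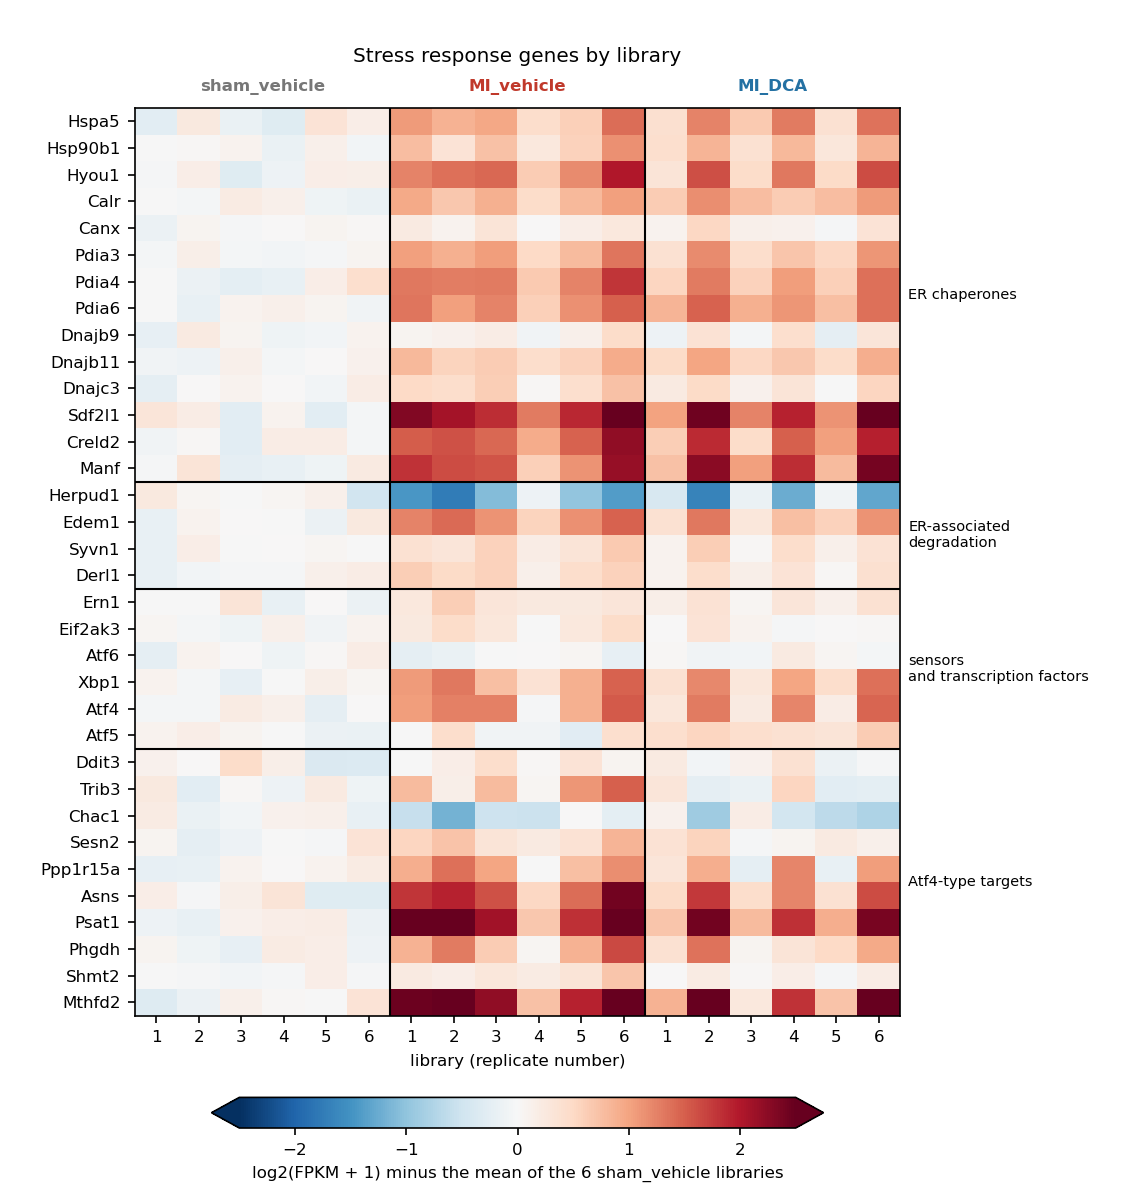
Heat map of the 34 genes (rows, in 4 groups) in the 18 libraries (columns, by replicate number); colour gives log2(FPKM + 1) minus the mean of the 6 sham_vehicle libraries, and values beyond 2.5 in either direction take the end colour. Most rows are red in both infarcted groups, Herpud1 is blue and Chac1 mostly so, and MI_vehicle 4 with MI_DCA 1, 3 and 5 are the palest infarcted columns.

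The upstream sequences of the genes are shown first because several chaperone genes hold the same short element there. Of the 34 genes, 30 matched the RefSeq promoter table of GRCm38.p6, and the 250 bases before each annotated start were searched on both strands. The ER stress element (ERSE), the known binding site of Atf6 with NF-Y, was searched as CCAAT, any 9 bases and CCACG. It was found before 7 of 12 chaperone genes (Hspa5, Hsp90b1, Calr, Canx, Pdia6, Dnajc3 and Creld2) and before Syvn1. In the whole table, these members included, it was found before 35 of 27025 genes (0.13%). A second form (ERSE-II), ATTGG, any base and CCACG, stood before Herpud1 alone among the members and before 10 genes in all (0.037%). No matches within a member overlapped. The element of Atf4 with its C/EBP partners (CARE), searched as TGATG, any base and AA, stood before 2 of 10 Atf4-type targets (Chac1 and Asns) and before Herpud1, and before 3.91% of all genes. The Xbp1 element TGACGTGG was found before 0 of the 30 members and 0.603% of all genes. A match is a description of these letters and no evidence of binding, and the absence of a match says only that the letters are not in this window.

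The stretches below are those of 4 chaperone genes with an ERSE, of which Hspa5, Hsp90b1 and Creld2 rose and Canx was not called, and of the 3 genes with a CARE. Capitals mark the matches, and each runs 5′ to 3′ on the gene's own strand and ends at the base before the annotated start. They lie at chr2:34771840-34772089, plus strand (Hspa5), chr10:86705445-86705694, minus strand (Hsp90b1), chr11:50325674-50325923, minus strand (Canx), chr15:88819396-88819645, plus strand (Creld2), chr8:94386179-94386428, plus strand (Herpud1), chr6:7693210-7693459, minus strand (Asns) and chr2:119350992-119351241, plus strand (Chac1).
Hspa5: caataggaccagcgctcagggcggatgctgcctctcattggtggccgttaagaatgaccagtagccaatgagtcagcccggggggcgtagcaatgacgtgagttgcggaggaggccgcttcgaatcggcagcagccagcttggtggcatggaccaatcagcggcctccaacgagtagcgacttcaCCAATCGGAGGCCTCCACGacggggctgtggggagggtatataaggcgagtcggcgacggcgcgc
Hsp90b1: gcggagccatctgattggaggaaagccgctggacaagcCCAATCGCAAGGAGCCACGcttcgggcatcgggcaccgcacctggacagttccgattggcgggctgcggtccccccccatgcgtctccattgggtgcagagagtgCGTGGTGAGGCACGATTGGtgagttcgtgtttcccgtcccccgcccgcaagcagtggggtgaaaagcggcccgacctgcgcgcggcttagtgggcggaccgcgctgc
Canx: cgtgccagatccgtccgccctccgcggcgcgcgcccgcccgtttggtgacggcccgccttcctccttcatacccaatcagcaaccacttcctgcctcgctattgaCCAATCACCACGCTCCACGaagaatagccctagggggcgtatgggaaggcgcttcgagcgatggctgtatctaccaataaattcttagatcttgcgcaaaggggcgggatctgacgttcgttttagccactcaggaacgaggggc
Creld2: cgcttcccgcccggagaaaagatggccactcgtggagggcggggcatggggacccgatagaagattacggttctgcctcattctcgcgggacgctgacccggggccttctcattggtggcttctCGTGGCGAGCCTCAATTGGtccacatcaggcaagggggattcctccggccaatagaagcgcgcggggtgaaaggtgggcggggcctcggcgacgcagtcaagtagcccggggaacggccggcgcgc
Herpud1: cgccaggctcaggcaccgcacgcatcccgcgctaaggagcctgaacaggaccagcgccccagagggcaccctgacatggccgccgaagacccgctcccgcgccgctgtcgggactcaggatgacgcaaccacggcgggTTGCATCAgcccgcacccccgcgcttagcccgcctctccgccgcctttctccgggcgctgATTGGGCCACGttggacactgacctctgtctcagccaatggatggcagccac
Asns: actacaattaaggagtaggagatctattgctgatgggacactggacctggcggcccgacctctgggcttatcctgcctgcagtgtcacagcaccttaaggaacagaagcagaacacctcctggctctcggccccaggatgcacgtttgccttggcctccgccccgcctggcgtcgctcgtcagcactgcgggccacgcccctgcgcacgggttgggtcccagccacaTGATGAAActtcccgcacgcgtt
Chac1: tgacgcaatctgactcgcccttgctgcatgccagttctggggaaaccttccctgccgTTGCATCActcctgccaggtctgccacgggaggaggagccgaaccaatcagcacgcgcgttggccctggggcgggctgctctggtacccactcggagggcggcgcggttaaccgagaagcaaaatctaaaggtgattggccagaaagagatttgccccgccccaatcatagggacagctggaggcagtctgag
Hsp90b1 carries 2 ERSE matches in opposite orientation. In Herpud1 the ERSE-II is the capital stretch nearer the start, and the CARE is the one farther from it.

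After infarction 26 of the 33 members that could be tested were higher in MI_vehicle than in sham hearts and 2, Herpud1 and Chac1, were lower, while 5 were not called. Infarction moved much of the transcriptome, and over all 11969 genes tested 38.3% were called higher and 20.1% lower. The median log2 fold change of the 33 members was 0.80, where that of all genes was 0.116. In 18 members every MI_vehicle library lay above every sham library, against 16.1% of all genes. In 0 members did every MI_vehicle library lie below, against 5.74% of all genes. Without MI_vehicle 4, 27 members were higher and 2 lower, beside 42% and 23.1% of all genes. Ern1 was below the filter on low values (at least 1 FPKM in at least 6 of 12 libraries) and is described with the sensors.

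The ER chaperones rose. Of 14 genes 12 were called higher and 0 lower, with a median log2 fold change of 0.91. Hspa5, the central chaperone BiP of the ER lumen, had 146, 182 and 229 FPKM as the lowest, median and highest sham library and 247, 343 and 475 in MI_vehicle (0.89, SE 0.16, adjusted p = 0.000726). The libraries did not overlap. Hsp90b1, the ER member of the HSP90 family, measured 126, 141 and 153 FPKM in sham and 168, 222 and 312 in MI_vehicle (0.63, SE 0.13). Calr, a lectin chaperone and calcium store, was the most abundant member, at 245, 269 and 318 FPKM in sham and 378, 493 and 559 in MI_vehicle (0.80, SE 0.11). The libraries did not overlap in either gene, and the largest fold changes among the chaperones belonged to less abundant folding factors.

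Sdf2l1, a subunit of an ER chaperone complex, had 3.42, 4.37 and 5.54 FPKM in sham and 12.1, 20 and 32.7 in MI_vehicle (2.02, SE 0.19, adjusted p = 2.06e-05). Creld2, a disulphide-related ER stress protein, went from 6.71, 8.27 and 9.62 to 16.7, 25.1 and 42.1 FPKM (1.52, SE 0.16). Manf, a secreted factor that binds BiP, went from 13.4, 15.1 and 20.1 to 24.5, 50.2 and 75.7 FPKM (1.49, SE 0.22). All 3 separated the groups completely, and among the MI_vehicle libraries replicate 4 was the lowest and replicate 6 the highest in each. Hyou1, a nucleotide exchange factor for BiP, rose by 1.31 (SE 0.18) and the disulphide isomerases Pdia4, Pdia6 and Pdia3 by 1.26 (SE 0.16), 1.14 (SE 0.13) and 0.93 (SE 0.12). Among the J-domain partners of BiP, Dnajb11 rose by 0.66 (SE 0.09) and Dnajc3 by 0.46 (SE 0.11), the latter with overlap because MI_vehicle 4 (11.6 FPKM) lay within the sham range. Dnajb9, another J-domain partner, was not called (0.14, SE 0.10, adjusted p = 0.231). Canx, the membrane-bound relative of Calr, measured 65.8, 74.5 and 77.2 FPKM in sham and 74.1, 84.2 and 91.8 in MI_vehicle (0.18, SE 0.07, adjusted p = 0.0534), and was not called. It was called without MI_vehicle 4 (0.21, adjusted p = 0.0159), with array weights (0.22, adjusted p = 0.00638) and without the filter (0.18, adjusted p = 0.0421).

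ER-associated degradation, which removes misfolded proteins to the proteasome, split. Edem1, which marks misfolded glycoproteins, went from 2.79, 3.32 and 4.15 FPKM in sham to 5.39, 8.89 and 11.1 in MI_vehicle (1.16, SE 0.14, adjusted p = 6.14e-05) with no overlap. Derl1, a channel component, rose by 0.47 (SE 0.09) and Syvn1, the ubiquitin ligase of the pathway, by 0.40 (SE 0.09). Herpud1, whose upstream stretch holds both ERSE-II and CARE, encodes a ubiquitin-domain membrane protein that organises the ligase complex, and it fell. It had 119, 171 and 196 FPKM in sham and 48.2, 69.8 and 152 in MI_vehicle (-1.13, SE 0.22, adjusted p = 0.00105). The 5 other MI_vehicle libraries, at 82.5 FPKM or less, lay below every sham library, and MI_vehicle 4 lay among them.

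Among sensors and transcription factors 3 of 5 tested genes rose, beside 38.3% of all genes tested. Xbp1 went from 35.0, 41.1 and 44.9 FPKM in sham to 52.6, 81.3 and 114 in MI_vehicle (0.97, SE 0.16, adjusted p = 0.000327), with no overlap. Atf4 went from 46.4, 54.1 and 62.8 to 53.5, 123 and 160 FPKM (0.99, SE 0.21, adjusted p = 0.0014), where MI_vehicle 4 alone stayed in the sham range. The sensor gene Eif2ak3 rose by 0.28 (SE 0.09, adjusted p = 0.0146), a call lost with median-ratio scaling (0.17, adjusted p = 0.0784) and quantile normalization (0.12, adjusted p = 0.216). Atf6, another sensor gene, measured 13.6, 16.2 and 18.4 FPKM in sham and 13.5, 14.9 and 16.6 in MI_vehicle and was not called (-0.09, SE 0.08, adjusted p = 0.352). With median-ratio scaling it was called lower (-0.23, adjusted p = 0.0446), as it was with quantile normalization (-0.24, adjusted p = 0.0374). Ern1 lay near 1 FPKM, at 0.41, 0.59 and 1.01 in sham and 0.88, 0.935 and 1.46 in MI_vehicle. An exact permutation test, adjusted over the 6412 genes below the filter, gave p = 0.013 and adjusted p = 0.117. Without the filter limma also tested Ern1, and 28 members were then called higher, Ern1 and Canx among them. Atf5, a relative of Atf4 that is translated by the same mechanism, was not called (0.06, SE 0.13, adjusted p = 0.68), and its sign turned to -0.07 with median-ratio scaling and -0.04 with quantile normalization.

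Of the 10 Atf4-type targets 8 rose and 1 fell, with a median of 0.80 (0.95 without MI_vehicle 4), and the 3 largest rises were those of enzymes of amino acid and one-carbon supply. Mthfd2, a mitochondrial folate enzyme usually low in adult tissue, had 0.90, 1.37 and 1.98 FPKM in sham and 2.90, 10.9 and 17.0 in MI_vehicle (2.17, SE 0.29, adjusted p = 0.00013). Psat1, of serine synthesis, went from 2.28, 2.69 and 3.21 to 4.95, 18.1 and 28.0 FPKM (2.14, SE 0.30, adjusted p = 0.000156). Asns, asparagine synthetase, went from 1.54, 2.30 and 2.94 to 3.49, 9.13 and 15.7 FPKM (1.60, SE 0.25, adjusted p = 0.000264). None of the 3 overlapped. Phgdh, the first enzyme of serine synthesis, rose by 0.90 (SE 0.21), with MI_vehicle 4 (1.48 FPKM) inside the sham range of 1.06 to 1.76; a pseudogene of it is annotated and may share reads. Shmt2, the mitochondrial serine hydroxymethyltransferase, rose by 0.31 (SE 0.09, adjusted p = 0.00911), a call lost with median-ratio scaling (0.18, adjusted p = 0.106) and quantile normalization (0.19, adjusted p = 0.0789).

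The other 5 targets were Ppp1r15a, Trib3, Sesn2, Ddit3 and Chac1. Ppp1r15a, the phosphatase subunit that reverses eIF2 phosphorylation, went from 11.99, 14.4 and 16.2 FPKM to 13.9, 27.9 and 38.0 (0.87, SE 0.18, adjusted p = 0.00157). Trib3, a pseudokinase that feeds back on Atf4, had 1.46, 1.87 and 2.47 FPKM in sham and 2.06, 4.10 and 7.23 in MI_vehicle (0.73, SE 0.21, adjusted p = 0.0098). Sesn2, a leucine-sensing stress protein, rose by 0.50 (SE 0.12). Ddit3, which encodes CHOP, a factor linked to cell death under ER stress, was not called, at 17.2, 23.1 and 30.7 FPKM in sham and 22.1, 24.1 and 30.4 in MI_vehicle (0.17, SE 0.14, adjusted p = 0.294). Every MI_vehicle library lay within the sham range of Ddit3. Chac1, a glutathione-degrading enzyme and classic Atf4 target, fell from 3.76, 4.52 and 5.24 to 1.38, 2.79 and 4.48 FPKM (-0.51, SE 0.16, adjusted p = 0.0165), and 5 of 6 MI_vehicle libraries lay below every sham library.

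**Figure D2:**
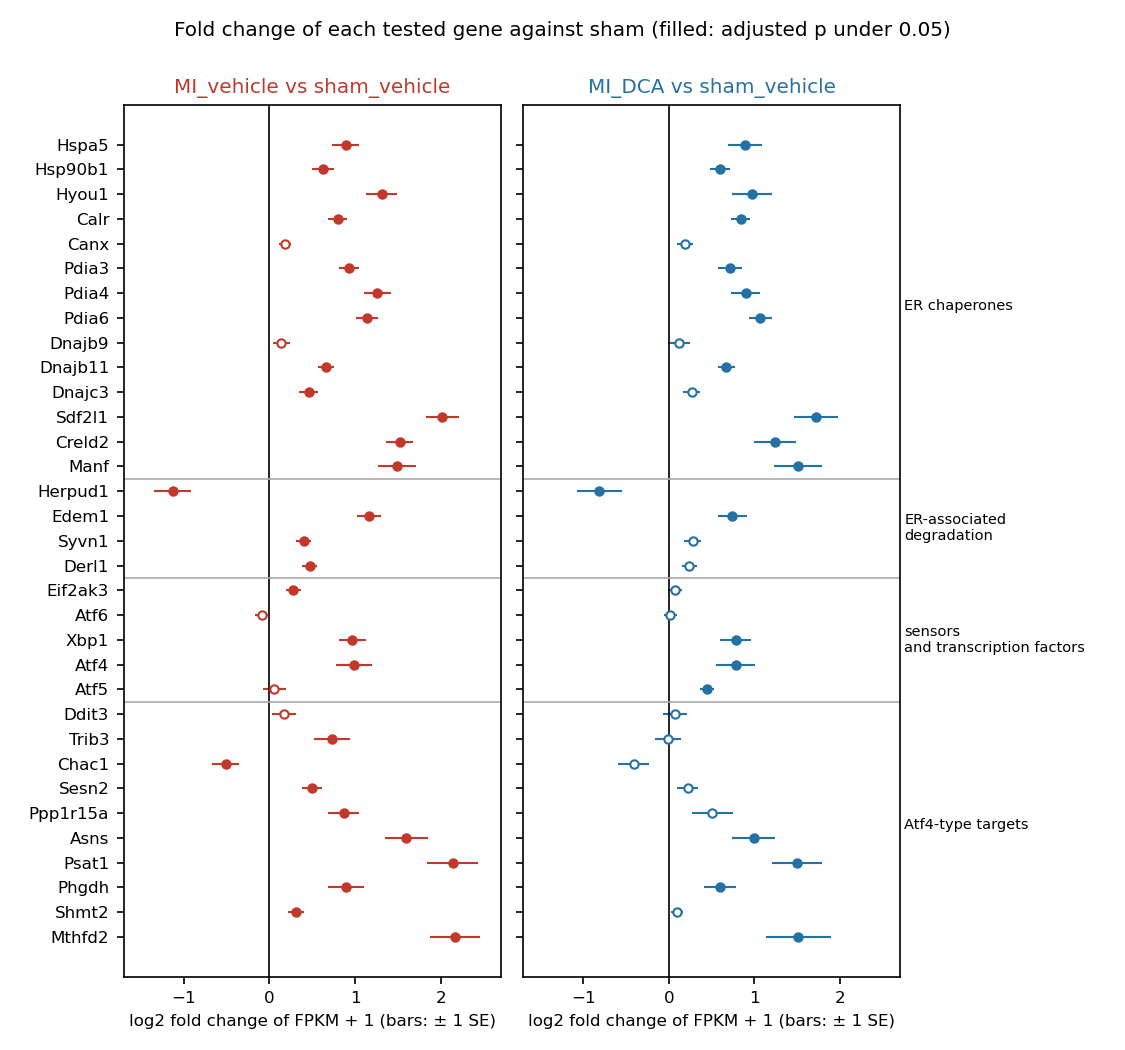
Log2 fold change of FPKM + 1 against sham for each of the 33 tested genes, in MI_vehicle (left, red) and MI_DCA (right, blue), with bars of 1 SE; filled points passed an adjusted p under 0.05. The chaperones sit at similar places in both panels (medians 0.91 and 0.86), the Atf4-type targets nearer 0 on the right (0.80 and 0.36), and Atf5 is filled on the right only; both panels share the sham libraries.

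The infarcted hearts given DCA were compared with the same sham libraries next. Of 33 tested members 19 were higher, 1, Herpud1, was lower and 13 were not called, and over all 11842 genes tested 15.5% were called higher and 8.33% lower. The median was 0.60 for the members and 0.048 for all genes. In 16 members every MI_DCA library lay above every sham library, against 6.31% of all genes, and in 0 every library lay below, against 2.84%. Without MI_DCA 1, 3 and 5, 25 members were called higher and 2 lower, beside 3664 higher and 2927 lower of 11570 genes. The gains were Canx, Dnajb9, Dnajc3, Syvn1, Derl1 and Ppp1r15a, higher, and Chac1, lower.

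Of the 14 chaperones 11 were called higher with DCA, and in all 11 the groups did not overlap. Hspa5 measured 237, 358 and 462 FPKM (0.89, SE 0.20, adjusted p = 0.016), Calr 425, 470 and 614 (0.84, SE 0.11) and Pdia6 83.1, 98.2 and 137 (1.07, SE 0.13, adjusted p = 0.00169). Sdf2l1 again had the largest fold change of the chaperones, at 9.60, 15.3 and 30.3 FPKM (1.72, SE 0.26), followed by Manf, at 27.1, 46.6 and 88.2 FPKM (1.51, SE 0.28). Canx and Dnajb9 were not called, and neither was Dnajc3 (0.27, SE 0.10, adjusted p = 0.0662), which was called without MI_DCA 3 (0.31, adjusted p = 0.0437) or MI_DCA 5 (0.33, adjusted p = 0.0312). The 3 MI_DCA libraries with Nppb near sham lay above every sham library in 13 (MI_DCA 1), 12 (MI_DCA 3) and 11 (MI_DCA 5) of 14 chaperones, as MI_vehicle 4 did in 11. Over 12229 expressed genes, 17.1% to 29.4% lay above every sham library in these 4 libraries.

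Of the Atf4-type targets 4 of 10 were called higher with DCA, all of them enzymes of amino acid and one-carbon supply. The median was 0.36, and 0.56 without MI_DCA 1, 3 and 5, where that of the chaperones went from 0.86 to 1.12. Psat1 measured 5.0, 9.04 and 18.9 FPKM (1.5, SE 0.29, adjusted p = 0.00993), Mthfd2 1.84, 5.32 and 14.8 (1.51, SE 0.38, adjusted p = 0.0214) and Asns 3.11, 4.87 and 9.75 (0.99, SE 0.25, adjusted p = 0.0213). Psat1 and Asns did not overlap with sham, and Asns lost its call without sham_vehicle 5 (0.93, adjusted p = 0.0504). Phgdh (0.60, SE 0.19, adjusted p = 0.0375) lost its call with the replicate number as a block (adjusted p = 0.0589), in the fit of all 3 groups (0.0644), without the filter (0.0588), and without any 1 of MI_DCA 2, 4 and 6 and the 6 sham libraries (adjusted p up to 0.0832). Trib3 lay at sham levels, at 1.46, 1.56 and 3.27 FPKM (-0.01, SE 0.15, adjusted p = 0.961). Sesn2 (0.22, SE 0.12), Shmt2 (0.10, SE 0.07), Ddit3 and Ppp1r15a (0.51, SE 0.24, adjusted p = 0.123) were not called. Chac1 measured 1.94, 2.71 and 5.20 FPKM and was not called (-0.41, SE 0.18, adjusted p = 0.101). Ppp1r15a was called without MI_DCA 3 (0.66) or MI_DCA 5 (0.65), and Chac1 without MI_DCA 1 (-0.51) or MI_DCA 3 (-0.53). Without MI_DCA 1, 3 and 5 together, Ppp1r15a was called higher (1.05, adjusted p = 1.46e-05) and Chac1 lower (-0.71, adjusted p = 0.000587).

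Among the remaining genes, Herpud1 measured 51.1, 97.3 and 156 FPKM with DCA (-0.81, SE 0.26, adjusted p = 0.0419). It fell into a low set (MI_DCA 2, 4 and 6, at 51.1 to 69.5 FPKM) and a set within the sham range (MI_DCA 1, 3 and 5, at 125 to 156 FPKM), and the groups overlapped. The call was lost without any 1 of MI_DCA 2, 4 and 6 and sham_vehicle 1 to 5 (adjusted p up to 0.0905), without the filter (0.0643) and with array weights (-0.35, adjusted p = 0.154), while Herpud1 was called lower without MI_DCA 1, 3 and 5 together. Edem1 rose (0.74, SE 0.17) with no overlap. Syvn1 (0.28, SE 0.10, adjusted p = 0.0638) was called without MI_DCA 1 or 3, and Derl1 (0.24, SE 0.09, adjusted p = 0.0712) without MI_DCA 5. Xbp1 rose by 0.78 (SE 0.18, adjusted p = 0.0167) and Atf4 by 0.78 (SE 0.23, adjusted p = 0.032), the latter call lost with array weights (0.32, adjusted p = 0.134) and without any 1 of MI_DCA 2, 4 and 6 and the 6 sham libraries (adjusted p up to 0.0685). Eif2ak3 and Atf6 were not called, and Ern1 measured 0.66, 0.865 and 1.09 FPKM (exact permutation p = 0.0368, adjusted p = 0.37).

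Atf5 was called with DCA against sham and not with vehicle against sham, and the difference between DCA and vehicle was not called. It measured 37.8, 43.6 and 48.4 FPKM in sham, 34.9, 41.3 and 58.4 in MI_vehicle and 54.0, 57.4 and 66.9 in MI_DCA. Every MI_DCA library lay above every sham library (0.45, SE 0.08, adjusted p = 0.00799), MI_DCA 1, 3 and 5 included, whereas in MI_vehicle only replicates 2 and 6 did. The annotation places Atf5 (chromosome 7, 44812256 to 44816658, GRCm38.p6) over parts of Nup62 and Il4i1b, and no source used here says how reads of overlapping genes were shared.

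**Figure D3:**
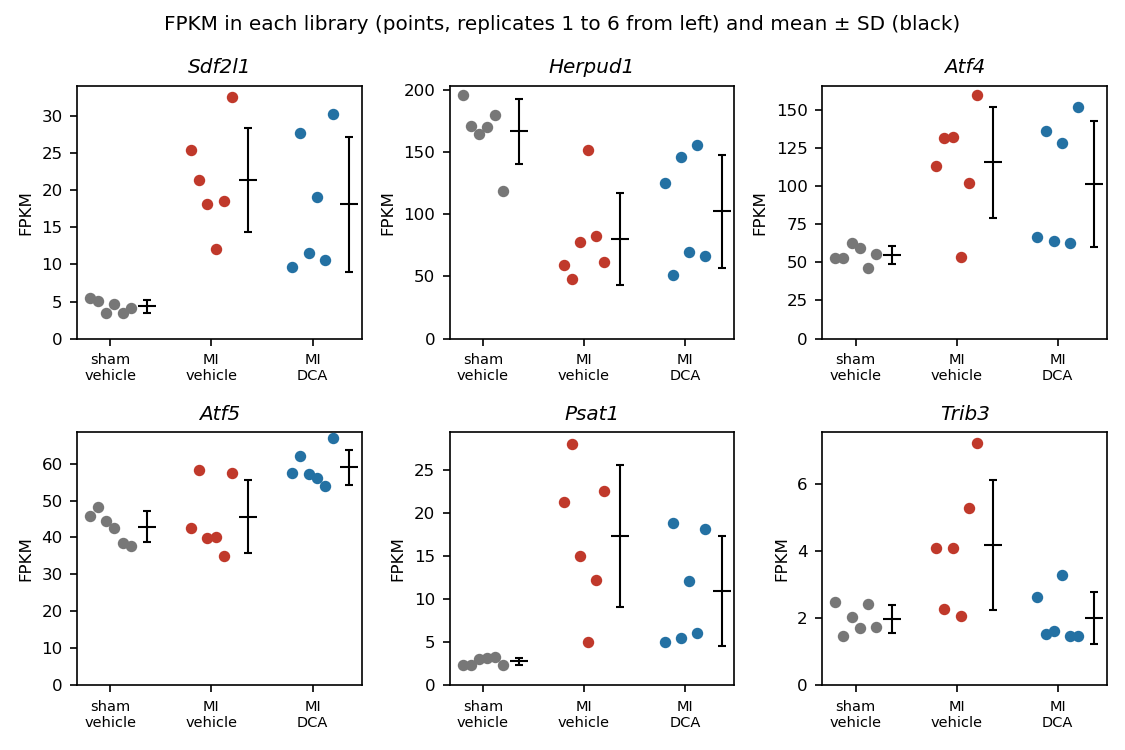
FPKM of 6 genes in each library (points, replicates 1 to 6 from left in each group) with mean and SD beside them in black; axes start at 0. Sdf2l1 and Psat1 lie above sham in both infarcted groups, Herpud1, Atf4 and Psat1 fall into 2 sets among the MI_DCA libraries, Atf5 is high in every MI_DCA library, and Trib3 is above every sham library in 4 of 6 MI_vehicle and 2 of 6 MI_DCA libraries.

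The last comparison set DCA against vehicle in infarcted hearts. Of 33 members 0 were called higher and 0 lower in limma, as was the case for all 12004 genes tested (0% higher and 0% lower, with unadjusted p under 0.05 for 192 and 1107 of them). In 0 members did the groups separate, against 0.075% of all genes higher and 0.467% lower. By unadjusted p under 0.05, 1 member was higher, Atf5 (0.39, 95% interval 0.11 to 0.66, adjusted p = 0.407), and 4 were lower. These were Trib3 (-0.74, 95% interval -1.26 to -0.22, adjusted p = 0.407), Shmt2 (-0.22, adjusted p = 0.449), Sesn2 (-0.29, adjusted p = 0.455) and Eif2ak3 (-0.21, adjusted p = 0.457). For Trib3, 4 of 6 MI_DCA libraries lay below every MI_vehicle library, and for Atf5, 2 lay above every MI_vehicle library.

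Estimates of all genes leaned below 0, with a median of -0.065. Those of the members leaned the same way, with 25 of 33 below and a median of -0.21. Without the 4 infarcted libraries near sham in Nppb, itself measured after treatment, 16 members were below 0. Their median was then 0.01, where that of all genes was -0.071. The median of the chaperones was -0.05, and it turned to 0.02 with median-ratio scaling and to 0.12 without the 4 libraries. The median of the Atf4-type targets was -0.33, and -0.20 without the 4 libraries, with 9 of 10 estimates below 0 in both. Psat1 differed by -0.64 (95% interval -1.55 to 0.27), and Herpud1 by 0.33 (-0.38 to 1.03), a difference that turned to -0.06 without the 4 libraries. Both intervals hold differences in either direction, so the groups are not shown to be alike. Weighting libraries by their scatter (array weights) gave 2 members called higher and 20 lower, beside 1623 and 3747 of all genes. The higher members were Herpud1 (0.83) and Atf5 (0.38), and the lower ones included Psat1 (-1.26) and Trib3 (-0.82). In that fit MI_DCA 1, 3 and 5 had weights of 1.66 to 2.5 and MI_DCA 2, 4 and 6 weights of 0.275 to 0.592, and MI_vehicle 4 had 0.357 where the other MI_vehicle libraries had 0.936 to 2.56.

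The chaperones and the Atf4-type targets were set side by side in each library, as the mean over a group's genes of log2(FPKM + 1) minus the sham mean. The chaperones stood at 0.48, 0.97 and 1.4 as the lowest, median and highest MI_vehicle library and at 0.47, 0.76 and 1.27 in MI_DCA, and sham libraries lay between -0.06 and 0.07. The targets stood at 0.19, 0.92 and 1.35 in MI_vehicle and 0.14, 0.54 and 0.88 in MI_DCA, and sham libraries lay between -0.13 and 0.08. All 12 infarcted libraries were above every sham library in both groups. The difference, targets minus chaperones, was below 0 in 6 of 6 MI_DCA libraries (-0.48 to -0.10) and in 4 of 6 MI_vehicle libraries (-0.29 to 0.13). Sham libraries lay on both sides of 0, between -0.19 and 0.13, and MI_DCA 1 (-0.10) lay within their range. No test was made of this difference, since the genes were chosen with earlier results of these data known. Adding 1 to FPKM understates changes of low genes, and several targets had lower sham means than any chaperone. With 0.1 added in place of 1, the median log2 fold change of MI_vehicle against sham was 0.92 for the targets and 0.91 for the chaperones. With 1 added these medians were 0.80 and 0.91. Asns, Psat1, Phgdh, Shmt2 and Mthfd2 together stood at 0.43 to 2.04 in MI_vehicle and 0.32 to 1.70 in MI_DCA, and the other 5 targets at -0.05 to 0.66 and -0.21 to 0.35. Leukocyte marker levels on the same scale ran from 1.08 to 2.39 in MI_vehicle and 0.47 to 1.89 in MI_DCA, and cardiomyocyte markers from -1.09 to -0.10 and -1.07 to 0.01. The part of cell makeup in these results was not tested. Markers of plasma and B cells, which are rich in ER, summed to 5.23 FPKM at most in any library.

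**Figure D4:**
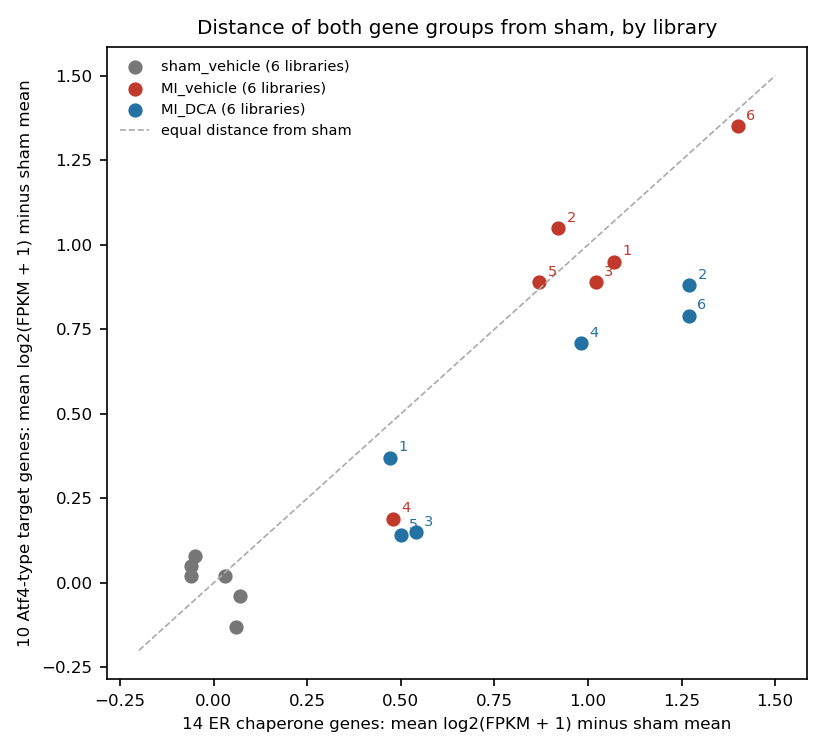
Each point is a library: the horizontal axis gives the mean distance from sham of the 14 chaperone genes and the vertical axis that of the 10 Atf4-type targets, both in log2(FPKM + 1), and numbers give the replicate. All 6 MI_DCA points lie under the dashed line of equal distance, and MI_vehicle 4 lies beside MI_DCA 1, 3 and 5.

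Splicing of Xbp1 is the direct readout of Ern1, and the transcript files list a value for each of its 2 forms, which differ by a short stretch inside the coding sequence. No file says which of the pair is the spliced form. It was assigned from RefSeq's description of the pair, recalled as background, and a swap would turn each share into its complement without changing the p-values. The transcript taken as the spliced form made up 20.6 ± 18.2% of the Xbp1 FPKM in sham (SD, n = 6), 17.5 ± 15.4% in MI_vehicle and 27.0 ± 16.6% in MI_DCA. It ranged from 0% to 46.8% in sham, 0% to 42.2% in MI_vehicle and 0.0403% to 49.5% in MI_DCA. A two-sided exact permutation test gave p = 0.753 for MI_vehicle against sham, 0.312 for MI_DCA against MI_vehicle and 0.517 for MI_DCA against sham (adjusted p = 0.753 each over the 3 comparisons). It was listed at 0 in sham_vehicle 1 and MI_vehicle 4 and at 0.02 to 0.04 FPKM in MI_DCA 3 and sham_vehicle 6, while the other libraries had 5.59 FPKM or more. The other transcript lay at 18.6 to 43.4 FPKM in sham and 44.0 to 97.2 in MI_vehicle, without overlap. In MI_DCA it lay at 38.9 to 68.1 FPKM, which overlapped sham. The form taken as spliced had medians of 9.0 FPKM in sham, 14.7 in MI_vehicle and 18.6 in MI_DCA. Its ranges overlapped, and its amount was not tested. The shares spread widely within each group, and no change in the share was detectable.

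**Figure D5:**
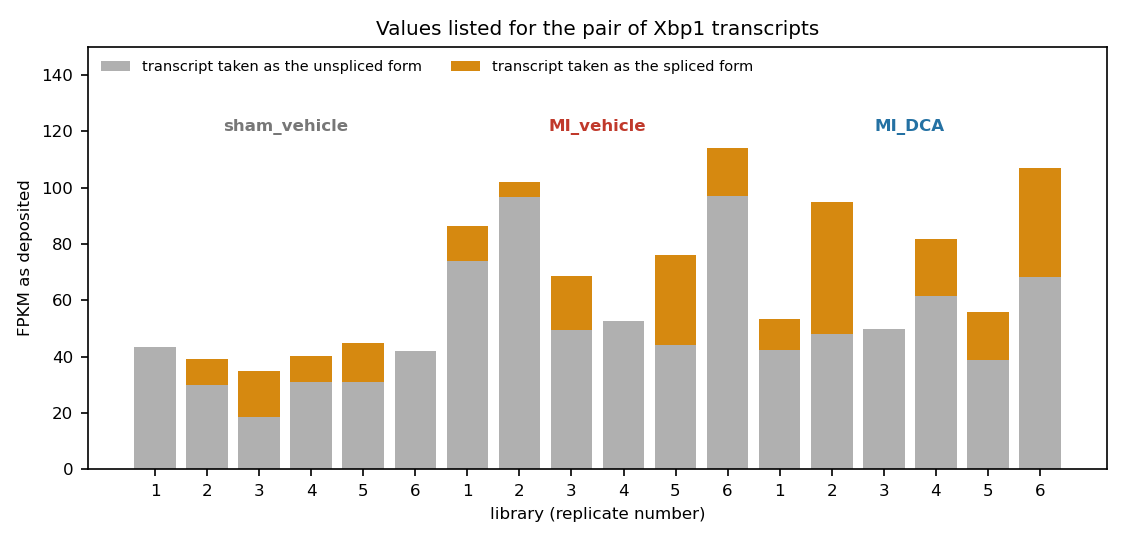
Stacked bars of the deposited FPKM of the Xbp1 transcripts taken as the unspliced (grey) and spliced (orange) forms in each of the 18 libraries, numbered by replicate. The sum is higher in every infarcted library than in every sham library. The orange part varies from 0 to 46.97 FPKM, with medians of 9.0 in sham, 14.7 in MI_vehicle and 18.6 in MI_DCA and overlapping ranges.

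Around the members, 117 further genes of the same processes were read in 7 lists. In MI_vehicle hearts 78 of 110 tested were higher than in sham and 7 lower (median 0.52), beside 38.3% and 20.1% of all genes (median 0.116). With DCA 47 were higher and 5 lower (median 0.30), beside 15.5% and 8.33% of all genes (median 0.048). Without MI_vehicle 4 the first counts were 82 and 7 (median 0.58), and without MI_DCA 1, 3 and 5 the second were 70 and 7 (median 0.49), beside 31.7% and 25.3% of all genes. Other ER folding genes rose in 17 of 20 (median 0.64), ER translocation and glycosylation genes in 17 of 21 (median 0.56), and aminoacyl-tRNA synthetases, which charge tRNAs and are known Atf4 targets, in 12 of 13 (median 0.57). Other degradation genes rose in 10 of 14 and fell in 1. Further sensors and factors rose in 10 of 16, and genes of amino acid transport, serine and one-carbon metabolism rose in 9 of 15 and fell in 2. Other stress-induced targets of Atf4 or Ddit3 had 3 of 11 higher and 4 lower (median 0.05), a smaller share higher and a larger share lower than all genes. With DCA the same 7 lists, in this order, had 10, 15, 4, 4, 8, 5 and 1 genes higher and 0, 0, 0, 1, 0, 3 and 1 lower.

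The largest rises among these genes in MI_vehicle hearts were Gdf15, a secreted stress hormone, from 1.2 ± 0.559 to 18.8 ± 14.4 FPKM (2.83, SE 0.45), Atf3, a stress-induced factor (2.24, SE 0.31), and Slc7a5, a leucine transporter (1.90, SE 0.28). The largest falls were Vldlr, a lipoprotein receptor, from 51.9 ± 7.61 to 19.2 ± 6.99 FPKM (-1.44, SE 0.18), Gpt2, a mitochondrial alanine transaminase (-1.08, SE 0.15), and Gadd45a, a stress-induced growth arrest gene (-0.94, SE 0.21). With DCA the rises were led by Atf3 (1.84, SE 0.38), Spcs3, a signal peptidase subunit (1.35, SE 0.41), and Fkbp11, an ER prolyl isomerase (1.23, SE 0.26). The falls were led by Vldlr (-1.25, SE 0.21), Gpt2 (-0.81, SE 0.26) and Erlec1, an ER lectin (-0.50, SE 0.13). Between DCA and vehicle 0 of 111 were called, 93 estimates were below 0 and the median was -0.17, where that of all genes was -0.065. Without the 4 infarcted libraries near sham, 76 of 110 were below 0 and the median was -0.08, where that of all genes was -0.071.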

How the data were processed

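The authors deposited, for each of the 18 libraries, a table of 19197 genes and a table of 64405 transcripts. The deposited values are read here as FPKM: no header names the unit, but their sum varied between libraries (coefficient of variation 3.09%) more than the sum weighted by length (0.71%). Per the submitters' processing notes, the build was GRCm38.p6 and the tools listed are RSEM 1.2.12, Bowtie2 2.2.5 and DESeq2 1.4.5. No source used here gives the tools' roles or says whether strand was used. Gene coordinates and upstream sequences are RefSeq's for GRCm38.p6, matched by identifier for 19051 genes (99.2%). Reads per library were estimated from the steps of low values in 674 short genes, searched within a 2-fold range, since a step of double or 0.5 times the size cannot be told apart.

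Groups and replicate numbers come from the labels. No label says that libraries came from separate mice, so p-values measure the spread between samples. No 2 libraries were identical. Values were tested as log2(FPKM + 1) with limma 3.58.1 (R 4.3.3, intensity trend, checked on simulated data) on the 2 groups compared, for genes with at least 1 FPKM in at least 6 of 12 libraries, with Benjamini-Hochberg adjustment over all genes tested. This scale understates changes of low genes. Ern1 and Xbp1 shares were compared by exact permutation over 924 regroupings, whose smallest p is 0.00216. Confidence intervals are 95% intervals of limma's moderated statistic. FPKM gives no counting error.

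The members and gene lists were chosen with earlier results of these data known. All members were reported; of the wider lists, called genes were ranked by fold change in each comparison, and the top 3 and bottom 3 were named. Several members overlap other coding genes (Hspa5, Pdia3, Pdia6, Syvn1, Atf6, Atf5, Ddit3, Ppp1r15a and Shmt2), so reads may be shared there.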

Additional observations from a re-analysis of the deposited data

Results flagged for a closer look

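In 6 of the 102 sets formed by a gene and a group of 6 libraries, the highest or lowest library stood far from the others, judged by its gap to the nearest library as a share of the group's range. Chance flags about 1 in 20 such sets. Herpud1 in MI_vehicle 4 (151.63 FPKM) had a share of 0.669, and this library was also near sham in Nppb. Ern1 in sham_vehicle 3 (1.01 FPKM) had 0.683 and Ern1 in MI_vehicle 2 (1.46 FPKM) had 0.828. Eif2ak3 in MI_DCA 2 (4.25 FPKM) had 0.706, so that the other 5 MI_DCA libraries lay at 3.06 to 3.41 FPKM. Shmt2 in sham_vehicle 5 (30.72 FPKM) had 0.744 and Shmt2 in MI_vehicle 6 (44.52 FPKM) had 0.736.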

How the results depend on the processing

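Alternatives were other pseudocounts, filters, scalings and fits, and leaving out each library. Of 28 members called in MI_vehicle against sham, 26 were called under every alternative that tested them, and of 20 called with DCA against sham, 16 were. In MI_vehicle against sham, a mean of at least 5 FPKM left 1 member lower and gave the Atf4-type targets a median of 1.23. In MI_DCA against sham, array weights gave 0 members lower and a chaperone median of 0.57, no filter gave 0 lower, and leaving out the libraries near sham, chosen after seeing the data, gave 2 lower. Leaving out 1 library gave 0 to 2. In MI_DCA against MI_vehicle, array weights gave 2 members higher and 20 lower. There the chaperone median turned to 0.02 with median-ratio scaling, 0.12 without the libraries near sham, and ran from -0.17 to 0.02 over the libraries left out (0.01 without MI_DCA 5). Herpud1 turned to -0.06 without the libraries near sham. Atf5 in MI_vehicle against sham turned to -0.01 with array weights, -0.07 with median-ratio scaling and -0.04 with quantile normalization, and ran from -0.01 (without MI_vehicle 2 or 6) to 0.13 over the libraries left out. Trib3 with DCA against sham turned to 0.03 with array weights, 0.02 without the libraries near sham, and ran from -0.12 to 0.04 over the libraries left out. The cause was not tested. Scaling moved the median of all genes in MI_vehicle against sham from 0.116 to -0.003 (median ratio) and -0.032 (quantile), and the genes called from 4583 higher and 2408 lower to 3402 and 3416, and 3189 and 3693. With DCA against sham they went from 1830 and 987 to 1353 and 1431, and 1304 and 1555; with array weights to 1396 and 565, with the block to 1124 and 572, and over the libraries left out from 740 and 315 (without sham_vehicle 5) to 2596 and 1489 (without MI_DCA 3). With the replicate number as a block, 26 members were higher and 2 lower in MI_vehicle against sham, and 18 and 1 with DCA, where Phgdh was lost (0.60, adjusted p = 0.0589). No label says that the numbers pair hearts: deviations of same-numbered libraries correlated at -0.44 to 0.69 between infarcted groups, and 1 of 6 libraries matched its own number best. The FPKM give no counting error, so what depth limits for Ern1, near 1 FPKM, was not tested.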
